A study of Mus musculus with 40 samples.

Results

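The 41 genes described here encode membrane transporters and endocytosis receptors of the proximal tubule, the stretch of the nephron that follows the glomerulus. They are taken by name, from what their proteins do. Of them, 5 handle sodium, phosphate and bicarbonate, 4 glucose and other sugars, 11 amino acids and peptides, 16 organic ions, urate, monocarboxylates and sulfate, and 5 serve endocytosis and water. All 41 were found among the 28467 genes of the bulk table and among the 32285 genes of the nucleus table, and all 41 passed the filter on low counts at each bulk time and in each nucleus class tested.

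Male C57BL/6 mice aged 8 to 12 weeks lost the left kidney (unilateral nephrectomy, UNx) or had a sham operation that left it in place, and a cross-section of the right kidney was taken afterwards. Bulk polyA RNA was sequenced from 6 sham and 6 UNx mice at each of 24, 48 and 72 h, in 36 libraries. Single nuclei were sequenced at 24 h from 2 sham and 2 UNx mice. Each library came from a mouse of its own, and each UNx group was compared with the shams of the same time. A cross-section holds many cell types, so in bulk RNA fewer proximal tubule cells and less of a transcript per cell cannot be told apart.

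The proximal tubule takes back most of what the glomerulus filters. Carriers of the luminal brush border draw sodium, phosphate, glucose, amino acids and organic acids into the cell, and basolateral carriers pass them to the blood, while anion and cation transporters secrete drugs and waste in the other direction. The receptors megalin (Lrp2) and cubilin (Cubn), with their partner amnionless (Amn) and the adaptor Dab2, capture filtered proteins by endocytosis. The tubule runs through 3 segments, named PTS1, PTS2 and PTS3 in the nucleus annotation, and many of these genes are known to be used mainly in one of them.

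Bulk libraries held 14.9 to 24.1 M counts. Their RNA profiles differed in ways that move with time and surgery: mitochondrially encoded genes took 23.5 to 26.7% of counts in the 24 h shams and 21.5 to 24.9% in the 24 h UNx libraries, but 14.0 to 15.5% in the 48 h shams and 13.6 to 16.1% in all 72 h libraries. At 48 h, UNx replicates 1 to 5 stood apart from the shams at up to 26.4%, while UNx replicate 6 was at 15.2%. A profile score made from 180 processed pseudogenes, set to 0 at the mean of the 48 and 72 h shams and to 1 at the mean of the 24 h shams, gave the same picture, with 0.610 to 0.863 in the 24 h UNx libraries, up to 0.664 in the 48 h UNx libraries and 0.00931 in their replicate 6. The labels give batch 1 for 24 h and batch 2 for 48 and 72 h, shared by sham and UNx. Batch and time thus cannot be told apart between 24 h and the later times, and levels are not compared between times. Marker genes of other kidney cell types and of injured tubule numbered 53, of which 7 are for injured tubule. Of them, 8 of 46 tested were higher and 2 lower in UNx at 24 h, 4 and 5 of 50 at 48 h, and 0 of 51 at 72 h. Summed markers of the thick ascending limb ranged from 4615 to 6783 CPM (counts scaled to a common library size, per M counts, with TMM factors) in 24 h shams and from 5333 to 6767 in 24 h UNx, and from 5078 to 7720 and from 3897 to 5711 at 48 h. Adipocyte markers summed to at most 0.822 CPM in the 24 h shams and reached 273 CPM in 1 UNx library of that time. At 48 h they had a median of 19.5 and a highest value of 199.9 CPM in shams, and 0.316 and 76.6 CPM in UNx. The part of these profile and marker differences in the results below was not tested, beyond the values given beside them.

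At 24 h after surgery the glutamine carrier Slc38a3 and the sugar carrier Slc5a10 were higher in UNx kidneys, a set of organic ion transporters was slightly higher, and the amino acid carriers Slc6a19 and Slc7a7, the anion exchanger Slc26a1 and the endocytic adaptor Dab2 were lower. With edgeR's quasi-likelihood test and Benjamini-Hochberg adjustment over all genes at 0.05, 7 members rose and 4 fell, 26.8% of the 41, where 27.3% of all 14104 genes tested were called, 14.2% as higher and 13.1% as lower. At 48 h, 14 members rose and 7 fell, 51.2% of the 41, where 32.9% of all genes were called, 16.9% as higher and 16% as lower. At 72 h Slc38a3 alone was called, as higher, against 1.71% of all genes, 1.21% as higher and 0.502% as lower. DESeq2 called 3 members there, Slc38a3, Slc13a1 and Slc13a2, against 2.52% of all genes. The median change over the 41 members was 0.01, 0.04 and 0.01 on the log2 scale at 24, 48 and 72 h, beside 0.01, -0.04 and -0.00 over all genes tested, so the members did not move as a block in either direction. By edgeR 16 of the 41 were called at none of these times. Among them DESeq2 called Slc20a2 and Slc22a8 at 48 h and Slc5a8 and Slc13a1 at 24 h. Of all genes DESeq2 called 19.5% at 48 h and 16.2% at 24 h.

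**Figure D1:**
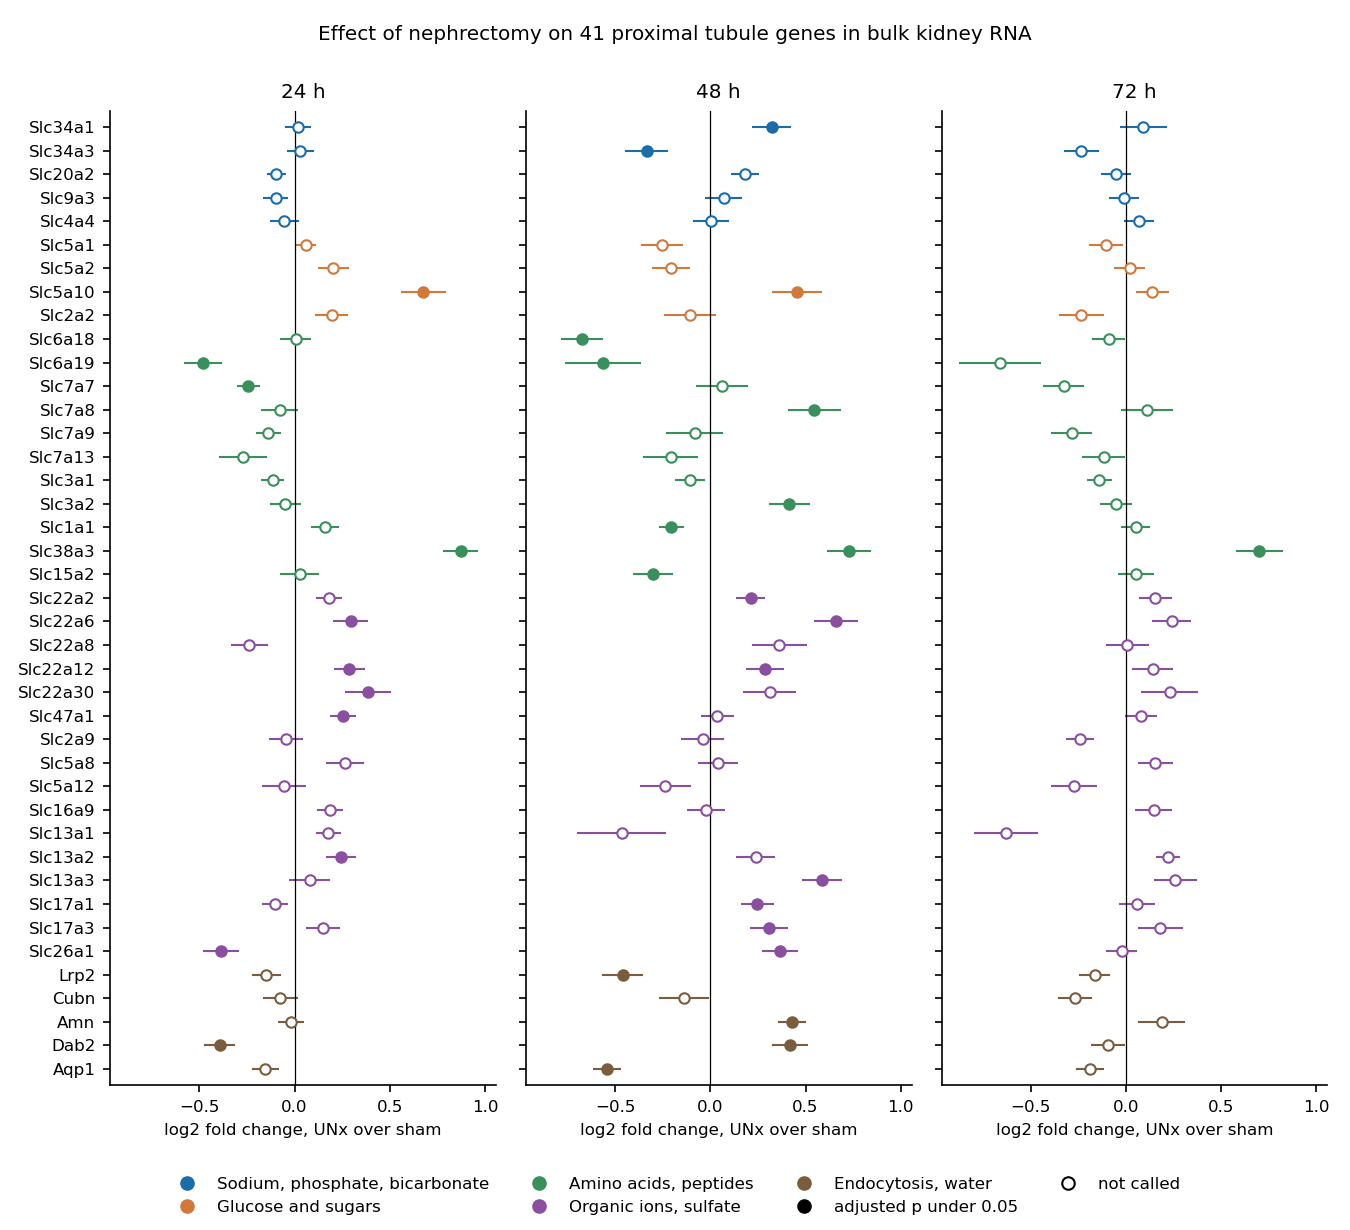
Log2 fold change of UNx over sham (x axis) with its standard error for each of the 41 genes at 24, 48 and 72 h in bulk RNA, 6 mice a group, coloured by functional group; filled points have an adjusted p under 0.05 (edgeR). Slc38a3 lies at 0.87, 0.73 and 0.70, filled in all panels, while Dab2 and Slc26a1 lie left of 0 at 24 h and right of it at 48 h.

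Few members were separated mouse by mouse. At 24 h the values of the 6 sham and 6 UNx mice did not overlap for Slc38a3 and Dab2, 2 of the 41, where 10.4% of all genes did not overlap. At 48 h this held for Slc38a3, Slc6a18, Slc13a3, Amn and Aqp1, 5 of the 41 against 11% of all genes. At 72 h it held for Slc38a3 and Slc2a9, against 2.05% of all genes. Slc6a18, Slc13a3, Amn and Slc2a9 are named here after their values were seen.

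Among the 5 genes for sodium, phosphate and bicarbonate, none was called at 24 h, and their changes ran from -0.10 to 0.03 on the log2 scale. At 48 h the 2 luminal sodium-phosphate cotransporters parted: Slc34a1, the main one in the mouse, rose and Slc34a3 fell. Slc34a1 had its lowest, median and highest level at 4302, 4701 and 5087 CPM in shams and at 4999, 5743 and 7362 CPM in UNx kidneys. All 6 UNx mice were above the sham mean, and 2 of them lay within the sham range, just below its upper end. The change was 0.32 (log2, SE 0.103, adjusted p 0.0282). Slc34a3 fell from a median of 51.3 to 42.4 CPM, by 0.34 on the log2 scale (adjusted p 0.0362). Both calls were close to the threshold: each held in 5 of 12 fits that left out 1 library. That of Slc34a1 was lost without sham replicate 2, 3, 5 or 6 or UNx replicate 1, 2 or 5, at 0.25 to 0.32, and that of Slc34a3 without sham replicate 4, 5 or 6 or UNx replicate 1, 2, 3 or 4, at -0.35 to -0.27. Slc20a2, a phosphate carrier of wide expression, Slc9a3, the sodium-proton exchanger of the brush border, and Slc4a4, the basolateral sodium bicarbonate cotransporter, were not called by edgeR, at 0.18, 0.07 and 0.00 at 48 h, where DESeq2 called Slc20a2. At 72 h the group ran from -0.23 to 0.09 with no call.

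Among the 4 sugar carriers, Slc5a10, a luminal sodium-dependent carrier of fructose and mannose, was the one that changed. At 24 h its levels were 114, 132 and 161 CPM (lowest, median, highest) in shams and 153, 216 and 261 CPM in UNx kidneys. Every UNx mouse exceeded the sham mean, and only the lowest UNx mouse fell within the sham range. It rose by 0.68 (log2, SE 0.118, adjusted p 0.000974). At 48 h it stood at 145, 164 and 208 CPM in shams and at 172, 224 and 301 CPM in UNx, a rise of 0.46 (SE 0.131, adjusted p 0.0167). At 72 h the ranges were 128 to 177 and 146 to 202 CPM, and the change of 0.14 was not called (adjusted p 0.452). Slc5a10 kept its call at both earlier times in 12 of 12 fits that left out 1 library. Slc5a2, the luminal cotransporter that recovers most filtered glucose, Slc5a1, its higher-affinity relative, and Slc2a2, the basolateral glucose facilitator, were not called by edgeR or DESeq2. Slc5a2 was at 0.20 at 24 h (adjusted p 0.0776), with all 6 UNx mice above the sham mean, and at -0.21 at 48 h (adjusted p 0.124), with all 6 below it. The difference between those 2 effects was called (-0.38, SE 0.132, adjusted p 0.0217).

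The amino acid carriers held both the largest rise and the largest falls among the members. Slc38a3 is a sodium-coupled glutamine carrier of the basolateral membrane, which brings in the glutamine used for ammonia production. At 24 h its levels were 52.6, 57.8 and 63.5 CPM in shams and 83.0, 101 and 128 CPM in UNx. At 48 h they were 35.2, 41.4 and 51.3 CPM against 53.7, 72.8 and 81.5 CPM. At 72 h they were 33.3, 48.5 and 58.4 CPM against 64.4, 77.8 and 92.6 CPM. At each time the lowest UNx mouse lay above the highest sham mouse. The rises were 0.87 (log2, SE 0.0933, adjusted p 5.33e-05), 0.73 (SE 0.114, adjusted p 0.00066) and 0.70 (SE 0.124, adjusted p 0.0135). Slc38a3 was the one member called at all 3 times, and it kept its call in 12 of 12 fits that left out 1 library at each time.

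Slc6a19, the main luminal carrier of neutral amino acids, went the other way. At 24 h it fell from 201, 243 and 271 CPM in shams to 137, 167 and 211 CPM in UNx, with a log2 change of -0.48 (SE 0.098, adjusted p 0.00249). All 6 UNx mice were below the sham mean and the ranges overlapped slightly. At 48 h the shams spread widely, at 264, 438 and 551 CPM, against 220, 273 and 373 CPM in UNx, a log2 change of -0.57 (SE 0.2, adjusted p 0.0424). This call was lost without sham replicate 4, 5 or 6 or without any of UNx replicates 1 to 5, at -0.60 to -0.47. At 72 h the estimate was -0.66 (SE 0.215), with all 6 UNx mice again below the sham mean, and it was not called (adjusted p 0.132). Slc7a7, the basolateral exchanger that releases cationic amino acids, fell by 0.24 at 24 h (log2, adjusted p 0.0083), from a median of 122 to 104 CPM. It was not called in bulk RNA later, at 0.06 and -0.33.

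The other amino acid carriers differed mainly at 48 h. Slc6a18, a luminal carrier of glycine and other neutral amino acids, had 358, 389 and 450 CPM in shams and 200, 231 and 340 CPM in UNx, with no overlap, and showed a log2 change of -0.67 (SE 0.111, adjusted p 0.000887). The highest UNx value is that of replicate 6, and the next is 251 CPM. Slc7a8, a basolateral exchanger of neutral amino acids, rose by 0.55 (adjusted p 0.00929), and its heavy chain partner Slc3a2, which also pairs with Slc7a7, rose by 0.42 (adjusted p 0.0102). Slc1a1, the glutamate carrier, and Slc15a2, the peptide carrier, fell by 0.20 and by 0.30 on the log2 scale, calls that held in 3 and in 5 of 12 fits that left out 1 library. Slc7a9 and its partner Slc3a1, which take up cystine, and Slc7a13, another partner of Slc3a1, were not called by edgeR or DESeq2, at -0.08, -0.10 and -0.21 at 48 h.

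By edgeR, 5 of the 16 organic ion transporters rose and 1 fell at 24 h, where 14.2% of all genes rose and 13.1% fell. At 48 h 7 rose and none fell, where 16.9% and 16% of all genes did. At 72 h DESeq2 called Slc13a1 and Slc13a2 of this group, where it called 2.52% of all genes. The median change over the 16 was 0.18 at 24 h and 0.24 at 48 h on the log2 scale. Slc22a6, the basolateral organic anion transporter that loads drugs and waste anions for secretion, had 772, 892 and 1179 CPM in 24 h shams and 1026, 1149 and 1256 CPM in 24 h UNx. The ranges overlapped, although all 6 UNx mice exceeded the sham mean. The rise of 0.29 (log2, SE 0.0916, adjusted p 0.0264) was no longer called without sham replicate 3 or 5 or UNx replicate 3, at 0.26 to 0.28. At 48 h its levels were 637, 703 and 791 CPM in shams and 750, 1174 and 1298 CPM in UNx. Of the 6 UNx mice, 5 lay above all shams, and the rise was 0.66 (SE 0.115, adjusted p 0.00119), called in 12 of 12 fits that left out 1 library. At 72 h it was 0.24, not called (adjusted p 0.251).

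Slc22a12, the urate-anion exchanger, rose at both earlier times. Its levels were 1002, 1143 and 1298 CPM in 24 h shams and 1197, 1378 and 1655 CPM in 24 h UNx, a rise of 0.29 (log2, SE 0.0811, adjusted p 0.0168). At 48 h they were 1009, 1260 and 1336 CPM against 1180, 1546 and 1620 CPM, again 0.29 (SE 0.0973, adjusted p 0.036). The ranges overlapped both times. The 48 h call was lost without sham replicate 2, 3 or 5 or UNx replicate 1, 4 or 5, at 0.24 to 0.29. Also called higher by edgeR at 24 h were Slc47a1, the luminal exporter of organic cations (0.25), Slc22a30, a mouse member of the organic anion transporter family (0.39), and Slc13a2, the luminal carrier of citrate and other dicarboxylates (0.24), of which Slc47a1 kept its call in all of 12 fits that left out 1 library, Slc22a30 in 6 and Slc13a2 in 5.

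At 48 h Slc13a3, the basolateral carrier of dicarboxylates, rose from 441, 506 and 588 CPM to 614, 757 and 974 CPM with no overlap between the groups, by 0.59 (log2, SE 0.107, adjusted p 0.00151). Slc17a3 and Slc17a1, which carry urate and other anions and lie 29.6 kb apart on chromosome 13, rose by 0.31 and 0.25, and the organic cation transporter Slc22a2 by 0.21. Those 3 calls held in 7, 3 and 4 of 12 fits that left out 1 library. Slc22a8, an organic anion transporter whose gene starts 24.8 kb from that of Slc22a6 on chromosome 19, was not called by edgeR at 24 h (-0.24, adjusted p 0.0766) or at 48 h (0.36, adjusted p 0.0661), where DESeq2 called it. The effects on Slc22a8 at these 2 times differed from each other (0.63, SE 0.182, adjusted p 0.00653), and its difference from Slc22a6 was not tested. Slc13a1, the luminal sulfate carrier, was at 0.18, -0.46 and -0.63 at the 3 times. At 72 h its shams had 260, 416 and 576 CPM and its UNx mice 231, 271 and 295 CPM, a difference that edgeR did not call (adjusted p 0.0766) and DESeq2 did (adjusted p 0.00974). The monocarboxylate carriers Slc5a8, Slc5a12 and Slc16a9 and the urate carrier Slc2a9 were not called by edgeR, at 0.27, -0.05, 0.19 and -0.04 at 24 h, where DESeq2 called Slc5a8.

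Slc26a1, the basolateral exchanger of sulfate and oxalate, was lower at 24 h and higher at 48 h. Its levels at 24 h were 124, 145 and 174 CPM in shams and 93.1, 116 and 134 CPM in UNx, a log2 change of -0.39 (SE 0.0951, adjusted p 0.00768). At 48 h they were 117, 128 and 152 CPM in shams and 147, 170 and 209 CPM in UNx, a rise of 0.36 (SE 0.095, adjusted p 0.0103). The ranges overlapped both times, with all 6 UNx mice below the sham mean at 24 h and all 6 above it at 48 h. At 72 h the change was -0.02.

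In the endocytosis group the same reversal appeared in Dab2, the adaptor that links megalin and cubilin to clathrin. At 24 h it had 517, 617 and 729 CPM in shams and 443, 462 and 511 CPM in UNx, with no overlap, and fell, with a log2 change of -0.39 (SE 0.0802, adjusted p 0.00251). At 48 h it had 401, 435 and 494 CPM in shams and 447, 595 and 695 CPM in UNx, and rose by 0.42 (SE 0.0946, adjusted p 0.00495). The lowest of these UNx values is again replicate 6, the one UNx mouse within the sham range. At 72 h the change was -0.10, not called. Dab2 and Slc26a1 kept their calls at 24 and 48 h in 12 of 12 fits that left out 1 library. Such fits cannot remove a profile difference shared by most libraries of a group. With the profile score as a covariate neither gene was called at either time, and Slc26a1 was at 0.21 at 24 h. Median scores were 1.00 in shams and 0.628 in UNx at 24 h, and 0.0226 and 0.599 at 48 h. The part of this score difference in the 2 reversals was not tested.

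Of the receptor genes, edgeR called Lrp2 and Amn at 48 h. Lrp2 fell from a median of 2426 to 1820 CPM, with a log2 change of -0.46 (SE 0.107, adjusted p 0.00561), while Amn rose from 58.4 to 81.0 CPM, by 0.43 (SE 0.0731, adjusted p 0.00102). Cubn was not called by edgeR or DESeq2 at any time, at -0.08, -0.14 and -0.27. Aqp1, the water channel of both membranes of the cell, had 808, 904 and 957 CPM in 48 h shams and 557, 613 and 686 CPM in 48 h UNx. The groups did not overlap, and Aqp1 fell, with a log2 change of -0.54 (SE 0.0721, adjusted p 0.000353), the lowest adjusted p among the members at that time. Aqp1 is also used by the thin descending limb and by vessels, and the bulk value does not separate these sources. Thin limb markers summed to 147 to 1093 CPM in 48 h shams and to 166 to 448 CPM in 48 h UNx, and their part in the Aqp1 result was not tested.

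**Figure D2:**
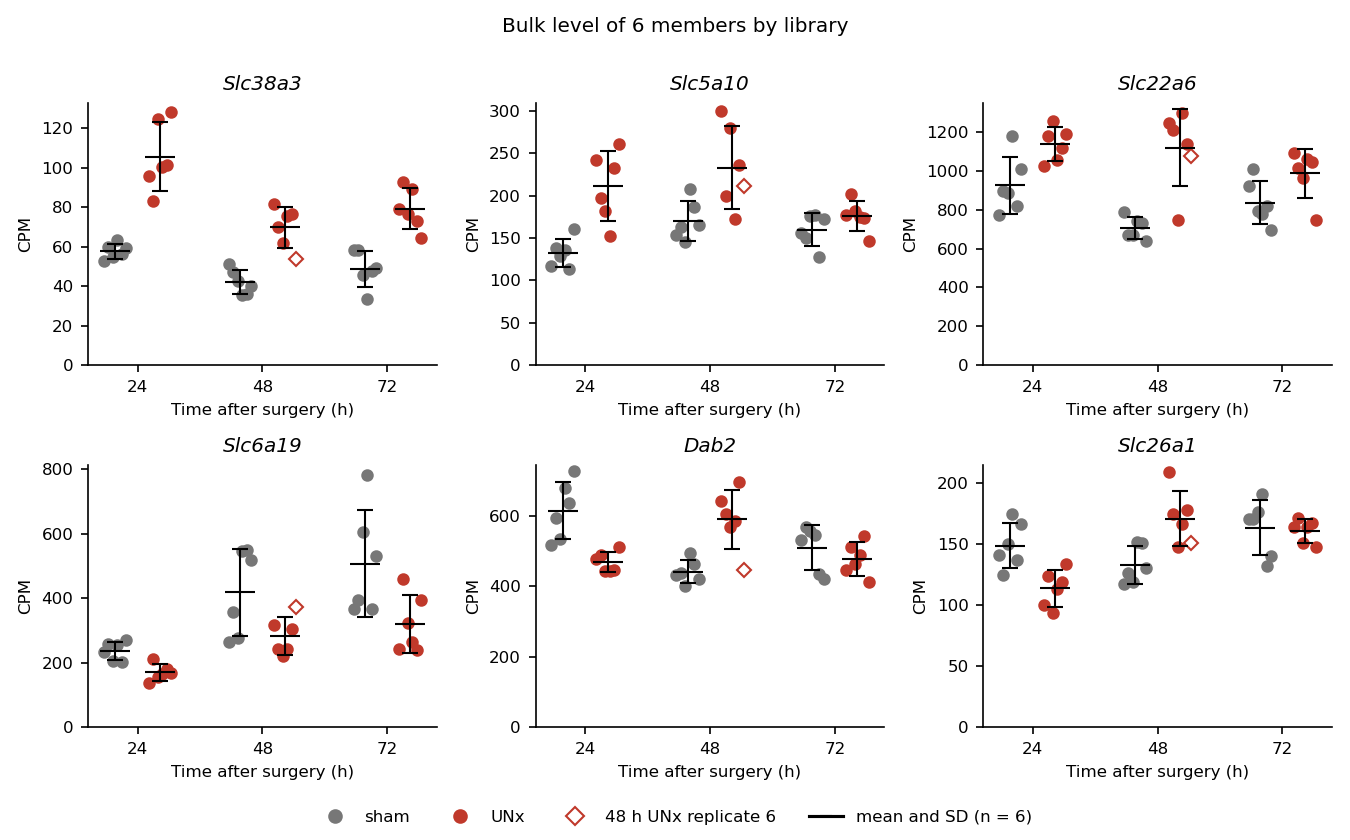
Bulk level (CPM, y axis from 0) of 6 members in each library at 24, 48 and 72 h, grey for sham and red for UNx, with mean and SD over 6 mice; the open diamond is 48 h UNx replicate 6. Slc38a3 is separated at each time, with 83.0 to 128 CPM in UNx against 52.6 to 63.5 CPM in shams at 24 h, and Dab2 is lower in UNx at 24 h and higher at 48 h.

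The effect of nephrectomy differed between 24 and 48 h in 14 of the 41 members by edgeR's test of the difference of effects, where 37% of all 15093 genes tested were called. It was more positive at 48 h in 10 and more negative in 4, against 19.3% and 17.7% of all genes. The largest shifts were those of Dab2 (0.84, SE 0.132, adjusted p 8.53e-06) and Slc26a1 (0.78, SE 0.139, adjusted p 4.31e-05). Between 48 and 72 h 5 members differed, Slc6a18, Slc3a2, Slc26a1, Dab2 and Aqp1, each with an effect nearer to 0 at 72 h, where 14.6% of all genes were called, 5.86% as more positive and 8.78% as more negative later. Between 24 and 72 h edgeR called 0 members, with 5 at an unadjusted p under 0.05. It called 4.15% of all genes, 2.74% as more positive and 1.41% as more negative later. DESeq2 called 2 members, Slc13a1 and Slc5a10, where it called 3.42% of all genes. By edgeR Slc13a1 was at -0.79 (adjusted p 0.0832) and Slc5a10 at -0.52 (adjusted p 0.086).

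When the 5 UNx libraries of 48 h with the high mitochondrial share were left out and replicate 6 alone was compared with the 6 shams, edgeR called 0 of all 15605 genes tested, members included. In that fit 1 UNx mouse is assumed to vary as the shams do, and nothing about the members is read from it. Of the 21 members called at 48 h, replicate 6 was on the same side of the sham mean in 17, inside the sham range in 9 and inside the range of the other 5 UNx mice in 9. It lay on the other side for Slc7a8, Slc3a2, Slc1a1 and Slc15a2, and outside the sham range, in the direction of the other UNx mice, for members such as Slc22a6 (1078 CPM), Slc13a3 (614 CPM), Aqp1 (686 CPM) and Slc38a3 (53.7 CPM). With the profile score as a covariate, 2 members were called at 24 h, Slc38a3 at 1.31 and Slc5a10 at 1.24, and 0 at 48 h and 72 h. That fit called 0.596% of all genes at 24 h, 0 of 14280 at 48 h and 0.68% at 72 h. Sham and UNx libraries did not overlap in the score at 24 h, so the score and the surgery cannot be told apart there. At 48 h UNx replicates 1 to 5 lay at 0.575 to 0.664 and the shams at -0.0515 to 0.0782. Replicate 6 alone lay among the shams, so the score and the surgery can hardly be told apart at 48 h either.

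**Figure D3:**
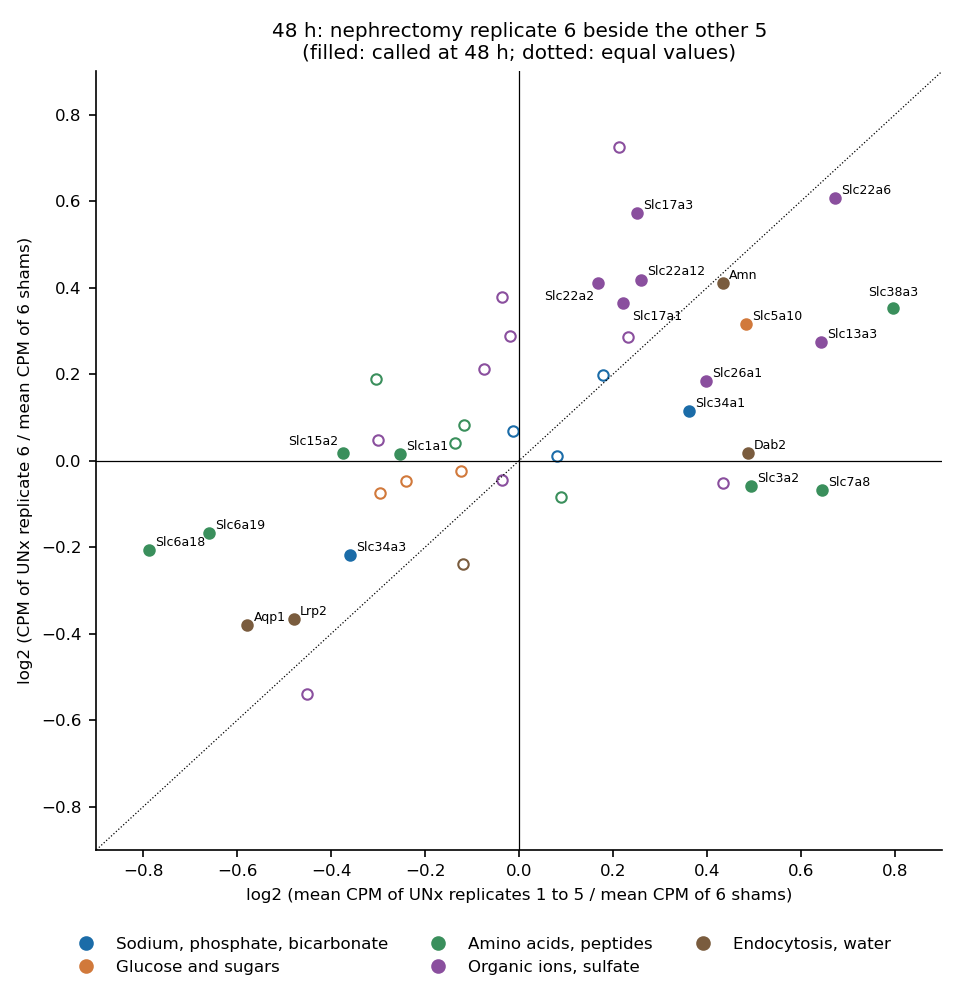
For each member at 48 h, the log2 ratio of UNx replicate 6 to the mean of 6 shams (y axis) beside that of the mean of UNx replicates 1 to 5 (x axis), coloured by functional group and filled where called at 48 h. Of the 21 filled points, 17 lie on the same side of 0 on both axes, and Slc7a8, Slc3a2, Slc1a1 and Slc15a2 do not.

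The genes around these transporters, taken from lists of the same pathways, showed calls in both directions, and those named first have the lowest p in their direction. Of 30 other proximal tubule transporters tested at 24 h, 9 rose and 2 fell, led by Slc22a5, the carnitine carrier (0.51), and Slc6a6, the taurine carrier (-0.52). At 48 h 2 of 31 rose and 5 fell, led by Slc16a1, a monocarboxylate carrier (0.60), and Slc22a4, an organic cation carrier (-0.42), and at 72 h Slc16a1 alone was called (1.02). Of 22 scaffold, ion pump and endosome genes, 3 rose and 3 fell at 24 h and 7 rose and 1 fell at 48 h, when Fxyd2, the gamma subunit of the sodium pump, rose by 1.02. It had fallen by 0.28 at 24 h. Of 13 genes that govern phosphate handling, 2 rose and 2 fell at 24 h, led by the phosphate carrier Slc20a1 (0.78) and the growth factor receptor Fgfr1 (-0.23), and 6 rose at 48 h, led by the kinase subunit Prkaca (0.24). Of 24 proximal tubule enzymes and secreted proteins, 5 rose and 5 fell at 24 h, led by Pck1 of gluconeogenesis (0.75) and Ass1 of arginine synthesis (-0.47). These shares, like those of the members, are to be read beside the 27.3% and 32.9% of all genes called at 24 and 48 h.

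Of 15 transcription factors and regulators of the proximal tubule, 1 rose and 5 fell at 24 h, where 14.2 and 13.1% of all genes did, and 3 rose and 2 fell at 48 h, where 16.9 and 16% did.

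In nuclei, 16500 in all, the authors' annotation gave 430 to 959 PTS1, 324 to 699 PTS2 and 211 to 502 PTS3 nuclei per mouse, with a median of 7581 to 9909 UMIs (counted molecules) over all nuclei of a mouse. From 1 to 7 barcodes were shared by any 2 libraries. The replicate number marks the labelled batch: replicate 1 of each group is batch 3 and replicate 2 is batch 4. The 2 mice of batch 4 stood apart, sham and UNx alike. Where the level of a member in PTS1 nuclei was divided by its level in distal convoluted tubule (DCT) nuclei of the same mouse, a class that should lack most of these transcripts, the median over the members was 25.4 and 31.2 in the sham and UNx mouse of batch 3 but 2.07 and 1.97 in batch 4. In PTS2 it was 28.6 and 24.7 against 2.14 and 1.98, and in PTS3 15.4 and 9.58 against 1.27 and 1.14. Slc34a1 had 97.0 and 96.9% of its UMIs in proximal tubule nuclei in batch 3, and 67.5 and 64.9% in batch 4. Nuclei of batch 4 thus carried transporter transcripts at a similar level in unrelated cells, so values are given per mouse, with the DCT level beside those that the results turn on. The part of this batch difference in the nucleus results was not tested beyond these values.

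The segments differed in the members they used. Slc5a2, Slc6a19, Slc7a8, Slc34a3 and Slc5a12 were highest in PTS1 in all 4 mice, with mean sham levels of 786, 385, 597, 59.7 and 4813 CPM there. The same genes had 63.5, 30.1, 28.4, 6.12 and 143 CPM in PTS3. Slc7a13, Slc6a18, Slc38a3 and Slc5a8 were highest in PTS3, at 3140, 619, 33.3 and 447 CPM, against 136, 65.6, 2.47 and 50.7 CPM in PTS1. Slc22a6, Slc13a3, Lrp2, Slc22a30, Slc47a1 and Slc5a1 were highest in PTS2 in all 4 mice. In all, 15 members were highest in PTS1, 6 in PTS2 and 9 in PTS3 in each of the 4 mice, and for 11 the segment was not the same in all. These orders are a description, since the classes come from clustering the same nuclei. Of all UMIs, the 3 segments held 55.6 and 57.1% in the sham and UNx mouse of batch 3 and 45.8 and 45.3% in batch 4. A share of 50% is thus below that of all genes in batch 3 and little above it in batch 4. In all 4 mice, the same 35 of the 41 members had over 50% of their UMIs in the 3 segments. Slc2a9 was an exception, with 21.1 to 32.7% there and its highest level, 881 CPM, in connecting tubule nuclei, and Slc15a2, with 32.9 to 42.7%, was highest in macula densa nuclei at 597 CPM.

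Nephrectomy at 24 h was followed by one difference in nuclei that exceeds all others among the members: Slc7a7, the basolateral cationic amino acid exchanger, was lower in the UNx mouse of both batches in PTS1 and PTS2. In PTS2 it stood at 424 and 329 CPM in the sham mice of batches 3 and 4 and at 41.1 and 65.5 CPM in the UNx mice. The DCT level in the same mice was 11.8, 224, 7.39 and 66.5 CPM. The PTS2 level was 35.8 and 5.56 times that of DCT in the sham and UNx mouse of batch 3. In batch 4 it was 1.47 and 0.986 times, so the value after nephrectomy was at the DCT level. The batch 4 pair was at -1.75 on the log2 scale in DCT nuclei as well, so the size of the PTS2 change is not read from that batch. The PTS2 change was -2.82 on the log2 scale (SE 0.33), at -3.33 and -2.31 in the pairs of batch 3 and 4. In PTS1 it stood at 1347 and 820 CPM in shams and at 576 and 356 CPM in UNx, -1.22 on the log2 scale, with -1.22 and -1.20 in the pairs. In PTS3 the values were 130 and 186 CPM against 34.7 and 68.1 CPM, -1.62 on the log2 scale. In PTS3 of batch 4 its level was 0.83 and 1.02 times that of DCT, so no change there is read in that batch. Sham and UNx did not overlap in any segment.

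With 2 mice against 2 and no batch term, edgeR called 0 of the 41 members and 0 of 14293 to 14934 genes in each segment. At an unadjusted p under 0.05 there were 2, 5 and 4 members and 182, 336 and 250 genes in PTS1, PTS2 and PTS3, or 1.22, 2.35 and 1.69% of those tested. DESeq2 without a batch term called Slc7a7 in PTS2 (adjusted p 4.67e-08) and no other member in any segment. Of all genes it called 0.0216, 0.123 and 0.109% in PTS1, PTS2 and PTS3. With the replicate number as a block, which compares UNx with sham within a batch, edgeR called 6 members as higher and 2 as lower in PTS1, 3 and 3 in PTS2, and 3 and 3 in PTS3. Of all genes 1.64% were called in PTS1 (0.656% higher, 0.984% lower), 3.05% in PTS2 (1.24% and 1.81%) and 2.38% in PTS3 (0.81% and 1.57%). Slc7a7 had adjusted p-values of 0.00538, 9.63e-05 and 0.000576 in that blocked fit. On simulated data the blocked fit made more false calls than its threshold stands for, so its calls near the threshold are uncertain. Sham and UNx did not overlap for 12, 22 and 16 members, where 20.5, 23.4 and 21.1% of all genes did not overlap.

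Under the block, 3 genes were called in all segments, Slc7a7 as lower and Slc22a6 and Slc13a3 as higher. Slc22a6 in PTS2, where it was highest, stood at 180 and 273 CPM in shams of batch 3 and 4 and at 476 and 569 CPM in UNx, with no overlap, a blocked change of 1.23 (log2, SE 0.158, adjusted p 0.00205). Its PTS2 level was 14.2 and 16.1 times that of DCT in batch 3 and 1.70 and 1.92 times in batch 4. The batch 4 pair rose by 1.06 in PTS2 and by 0.89 in DCT. In PTS1 it stood at 60.1 and 196 against 186 and 333 CPM, a blocked change of 1.19 (adjusted p 0.0198), with 1.61 and 0.77 in the pairs. In batch 4 it was there only 1.22 and 1.12 times its DCT level, so the PTS1 call rests on levels near background in that batch. In DCT nuclei it was higher as well, at 12.7 and 160 CPM in shams and 29.6 and 296 CPM in UNx, 1.22 and 0.89 in the pairs. In PTS3 its level of 17.3 to 253 CPM was 0.818 to 1.36 times that of DCT in all 4 mice, so no change in PTS3 nuclei is read from it. Slc13a3 in PTS2 stood at 421 and 574 CPM in shams and 864 and 1021 CPM in UNx, a blocked change of 0.93 (SE 0.158, adjusted p 0.00949). In DCT nuclei Slc13a3 was at 2.45 and 178 against 8.32 and 296 CPM, and in PTS3 of batch 4 it was at the DCT level, 0.917 and 0.932 times it.

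The lower genes were Slc13a1, Dab2 and Cubn beside Slc7a7. Slc13a1, the sulfate carrier, fell in PTS2, from 2584 and 1376 CPM to 1323 and 820 CPM, a blocked change of -0.86 (log2, SE 0.169, adjusted p 0.0198), and in PTS3, from 559 and 625.1 CPM to 159 and 328 CPM, -1.37 (SE 0.205, adjusted p 0.00664). Neither segment had overlap. In PTS1 the batches disagreed, at -0.71 and 0.24, without a call. In DCT nuclei it was at 46.6 and 423 CPM in shams and 27.7 and 348 CPM in UNx, and its PTS3 level in the UNx mouse of batch 4 was 0.943 times that of DCT. Dab2 fell in PTS2, from 3831 and 3978 CPM to 2581 and 1453 CPM, -1.01 (SE 0.225, adjusted p 0.036), and in PTS3, from 706 and 1461 CPM to 500 and 598 CPM, -0.89 (adjusted p 0.0436). In PTS1 its blocked value was -0.62, not called (adjusted p 0.195). In PTS3 of batch 4 its level was 1.21 and 1.05 times that of DCT, so the PTS3 call rests on levels near background in that batch. The DCT level of Dab2 also fell in both pairs, by 1.10 and 1.09, from 34.7 and 1208 CPM. Cubn was called in PTS1, from 1065 and 755 CPM to 714 and 421 CPM, -0.71 (SE 0.144, adjusted p 0.0481), and Lrp2, its partner receptor, was not called in any segment, at blocked values of -0.66, -0.67 and -0.62, although sham and UNx mice did not overlap in any of them.

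**Figure D4:**
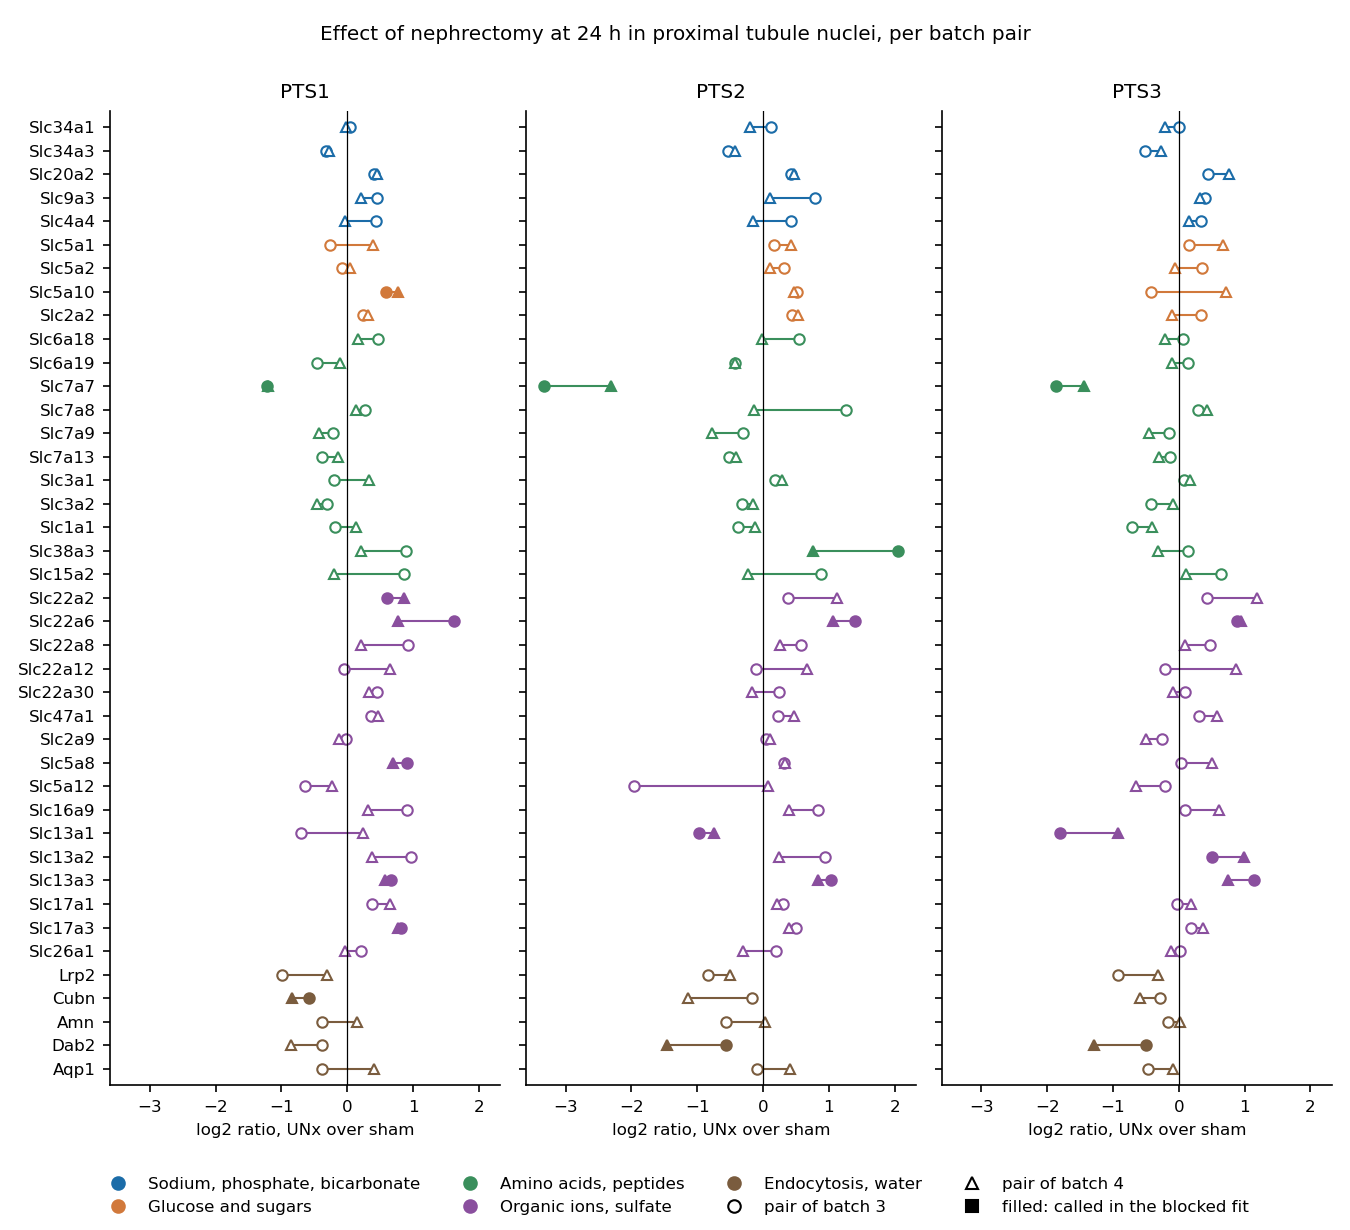
Log2 ratio of UNx over sham in summed nuclei of PTS1, PTS2 and PTS3 at 24 h for each member, circles for the pair of batch 3 and triangles for that of batch 4, filled where the blocked fit called the member. Slc7a7 lies furthest to the left in each panel, at -3.33 and -2.31 in PTS2, and Slc22a6 and Slc13a3 lie to the right in all panels.

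The other members called under the block were higher. In PTS1 these were Slc17a3 (0.79, adjusted p 0.0277), Slc22a2 (0.74, adjusted p 0.0267), Slc5a8 (0.82, adjusted p 0.0267), Slc5a10 (0.69, adjusted p 0.0354) and Slc13a3 (0.62, adjusted p 0.0481). Slc17a3 stood at 512 and 487 CPM in shams and 903 and 831 CPM in UNx, with no overlap. In batch 4 it was 1.69 and 1.69 times its DCT level, and the pair of that batch rose by 0.77 in PTS1 and by 0.77 in DCT. Slc5a8 in PTS1 was at 17.8 and 78.8 against 34.5 and 128 CPM, and its batch 4 values were 0.904 and 0.861 times the DCT level, at background. Slc5a10 was at 33.2 and 83.2 against 50.4 and 142 CPM, and Slc22a2 at 65.2 and 125 against 100 and 227 CPM, and for both the ranges of sham and UNx overlapped. In batch 4 Slc5a10 was 1.32 and 1.64 times its DCT level and Slc22a2 1.28 and 1.35 times, near background. The batch 4 pair rose by 0.77 in PTS1 and 0.46 in DCT for Slc5a10, and by 0.86 and 0.79 for Slc22a2. In PTS2 Slc38a3 was higher, with 26 and 42 UMIs in shams and 183 and 86 in UNx, or 3.35 and 8.95 against 17.1 and 15.9 CPM, a blocked change of 1.57 (SE 0.354, adjusted p 0.0375). In DCT nuclei it was at 0 and 3.05 CPM in shams and 1.39 and 9.10 CPM in UNx. The batch 4 pair rose by 0.76 in PTS2 and by 1.58 in DCT. In PTS3, where Slc38a3 was highest, it was at 36.6 and 28.7 CPM in shams and 40.2 and 22.9 CPM in UNx, without a call. Slc13a2 was higher in PTS3, at 124 and 91.4 CPM against 178 and 182 CPM (0.75, adjusted p 0.0414).

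**Figure D5:**
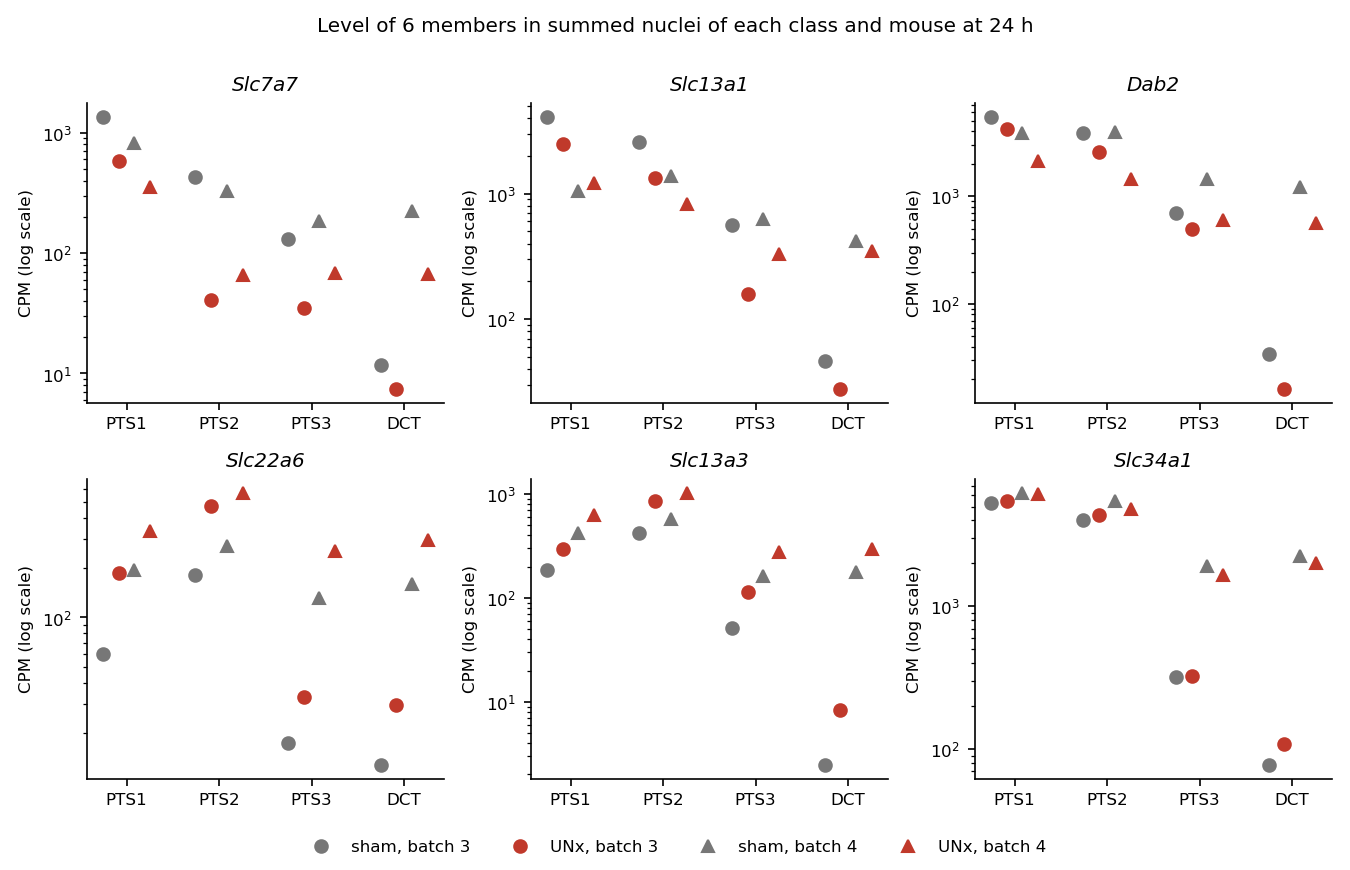
Level (CPM, log axis) of 6 members in summed PTS1, PTS2, PTS3 and DCT nuclei of each mouse, circles for batch 3, triangles for batch 4, grey for sham and red for UNx. Slc7a7 in PTS2 drops from 424 and 329 CPM to 41.1 and 65.5 CPM, Slc34a1 shows little change, and the DCT level of every gene shown is far higher in batch 4.

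By functional group, organic ion transporters are 16 of the 41 members. Under the block they made up 5 of 6 members called higher in PTS1, 2 of 3 in PTS2 and 3 of 3 in PTS3. Of these calls, Slc5a8 in PTS1 and Slc22a6 and Slc13a3 in PTS3 were at or below the DCT level in batch 4. Slc22a6 and Slc22a2 in PTS1 were near it. A rise of the group is not read from these counts. Of the 16, 13 had a positive estimate in PTS1, 13 in PTS2 and 12 in PTS3, with medians of 0.51, 0.33 and 0.24 on the log2 scale beside -0.02, -0.02 and -0.01 over all genes. The 5 sodium, phosphate and bicarbonate carriers were not called under the block in any segment. Slc34a1 stood at 5268 and 6210 CPM in PTS1 of shams and 5447 and 6120 CPM in UNx, a change of 0.01. Slc5a1, Slc5a2 and Slc2a2 of the sugar group were not called. Of the endocytosis group, 4 of 5 had a negative estimate in PTS1 and PTS2 and all 5 in PTS3. A test of whether the UNx effect differed between segments called 0 members and 0 genes with edgeR, with 1 member at an unadjusted p under 0.05 for PTS2 against PTS1 (Slc7a7, difference -1.68, SE 0.579) and 3 for PTS3 against PTS1 (Slc1a1, Slc17a1 and Slc17a3). That the called genes differ between segments is therefore not shown.

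Nearly all UNx proximal tubule nuclei lie in finer clusters that the authors named for nephrectomy: 756 of 770 PTS1 nuclei in the batch 3 mouse and 369 of 430 in that of batch 4, beside 14 and 16 nuclei of the sham mice. Only 14 and 61 UNx nuclei remained in the PTS1 cluster shared with shams. There edgeR without a batch term called 0 of 13367 genes, members included, so nothing about the members is read from that fit. The segments used here join these clusters.

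Bulk RNA and nuclei at 24 h came from different mice. Of the 41 members, 28, 28 and 27 had the same sign in bulk as in PTS1, PTS2 and PTS3, and of the 11 called in bulk at 24 h, 10, 11 and 10 did. The share of all genes with the same sign was not determined, and the segments come from the same mice. These counts are therefore a description. Slc7a7 was at -0.24 on the log2 scale in bulk and at -1.22, -2.82 and -1.62 in nuclei. Slc26a1, lower by 0.39 in bulk, was at 0.09, -0.04 and -0.08 in nuclei, and Slc6a19, lower by 0.48 in bulk, was at -0.31 in PTS1, where it is mainly found, and not called. Slc38a3, at 0.87 in bulk, was at 0.47, 1.44 and -0.05 in the 3 segments.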

How the data were processed

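Bulk values are estimated counts per gene that the authors deposited, made with Salmon 1.5.0 on GRCm39 per the submitters' processing notes, from stranded polyA libraries per the labels' protocols. They were rounded to whole numbers. Nucleus values are UMI counts per nucleus that the authors deposited, with their cell annotation; the submitters' processing notes name alevin, Seurat and mm10. How doublets were treated is not given in the sources used here. None were called in this work.

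Nucleus counts were summed per mouse and class. Each bulk time and each segment was fitted apart with edgeR 4.0.16 (filterByExpr, TMM, quasi-likelihood, Benjamini-Hochberg over all genes at 0.05) in R 4.3.3, and effects at different times were compared in 1 fit over the 36 libraries. Standard errors come from the F statistic of each gene and its log2 fold change. DESeq2 1.42.0 was an alternative. Levels are CPM with TMM factors.

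In nuclei the replicate number marks the labelled batch and so pairs the samples; deviations of same-numbered mice correlated at 0.844, 0.832 and 0.857 in PTS1, PTS2 and PTS3, and blocked values are given beside the results. The fits were tested on simulated data, with 100 genes changed 1.5-fold and 100 changed 2-fold. Bulk fits recovered 57 to 75 of the former and 82 to 89 of the latter. Nucleus fits without a block recovered 0 in each segment, so their 0 calls do not show an absence of change. With the block they recovered 10 to 19 and 51 to 64, beside 7 to 16 false calls. The members and lists were chosen with earlier results of these data known. Values by library are given for the called member with the lowest p in each group at each bulk time, for members called at 2 or more times, for members called in a segment, and otherwise for the 3 with the lowest p; list genes are named where they had the lowest p in a direction. Alternatives covered scaling, the count filter, mitochondrial genes, DESeq2, the profile score, the block and each library left out. One result for a single gene of these lists is not reported here.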

Additional observations from a re-analysis of the deposited data

Results flagged for a closer look

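In 66 groups of 6 libraries examined for members described mouse by mouse, 2 held a library set apart from the other 5 by a gap that is large for the range of the group. Chance alone sets apart about 1 in 20 groups. Slc6a18 in the 48 h UNx group reached 340 CPM in replicate 6, with the next value at 251 CPM. Amn in the 48 h sham group reached 75.0 CPM in replicate 4, with the next value at 59.9 CPM.

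By edgeR's test of the difference itself, the effect of nephrectomy changed between times in 14 members, in 19 differences. From 24 to 48 h it became more positive on the log2 scale for Dab2 (by 0.84), Slc26a1 (0.78), Slc7a8 (0.65), Slc22a8 (0.63), Slc13a3 (0.54), Slc3a2 (0.49), Amn (0.48), Slc22a6 (0.395), Slc17a1 (0.38) and Slc20a2 (0.31). Over the same interval the difference was -0.65 for Slc6a18, -0.38 for Slc5a2, -0.36 for Aqp1 and -0.34 for Slc1a1. From 48 to 72 h it was 0.57 for Slc6a18, 0.35 for Aqp1, -0.52 for Dab2, -0.48 for Slc3a2 and -0.40 for Slc26a1. The labelled batch also changes between 24 and 48 h, and UNx replicates 1 to 5 of 48 h differ from replicate 6 in RNA profile. Time, batch and library profile thus cannot be told apart in the differences from 24 to 48 h. The 48 and 72 h libraries share a labelled batch, and in their differences time and library profile cannot be told apart.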

How the results depend on the processing

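Member counts moved as follows. At 24 h the 11 calls became 7 with all 36 libraries in 1 fit, 2 with the profile score as a covariate and 8 to 16 with 1 library left out. At 48 h the 21 became 0 with the score, 0 with UNx replicates 1 to 5 left out and 13 to 23 with 1 library left out, 13 without sham replicate 5 or UNx replicate 1. At 72 h the 1 became 3 with DESeq2, 0 with the score and 1 to 3 with 1 library left out, 3 without sham replicate 5 (Slc38a3, Slc13a1 and Slc7a7). With the score, or with UNx replicates 1 to 5 left out, the 14 and 5 differences between adjacent times became 0, and DESeq2 called 2 between 24 and 72 h. In nuclei the 0 calls became 8, 6 and 6 with the replicate block and 1 in PTS2 with DESeq2. The cause was not tested.

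With the score, signs turned at 24 h for Slc22a30 (-0.24), Slc47a1 (-0.19) and Slc26a1 (0.21), at 48 h for Slc6a19 (0.0209), Slc7a8 (-0.0189) and Slc1a1 (0.01), and for the 24 to 48 h difference of Slc6a18 (0.0649), Slc7a8 (-0.12), Slc3a2 (-0.15), Slc1a1 (0.0818) and Slc13a3 (-0.026). Without UNx replicates 1 to 5 they turned at 48 h for Slc7a8 (-0.0647), Slc3a2 (-0.0547), Slc1a1 (0.0195) and Slc15a2 (0.021), and for the 48 to 72 h difference of Slc3a2 (3e-04). Of the other values for single members, 3285 kept direction and side of the threshold, 175 lost a call and 60 gained one.

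Bulk replicate numbers share only a number (correlations of -0.295 to 0.141). With the replicate block 12, 22 and 1 members were called at 24, 48 and 72 h, and the differences between times gave 14, 5 and 0. Nuclei in clusters not named for nephrectomy were too few for a fit in PTS2 and PTS3. In nuclei, 2 mice a group and a high level of transporter transcripts in DCT nuclei of batch 4 limit what can be detected.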
